A study of Mus musculus with 12 samples.

Results

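Ptx3 encodes the long pentraxin PTX3, and 1 of the 8734 probes on the array carried this gene symbol, probe 806. It is 1 of 5723 genes named by a probe with a single symbol, and of 3997 with a value on all arrays used. The gene was chosen by its measured change with IL-1β in wild-type glia and by the difference of that change from the one in IL-1R1-/- glia. Its changes with IL-1β are therefore given below as values with their errors and without a test. The cultures were primary mixed glial cells of the mouse, either wild-type or labelled IL-1R1-/-, a genotype that lacks the receptor through which IL-1β signals. After 10 to 12 days in culture they received rrIL-1β at 10 ng/ml or vehicle for 4 hours, both treatments within each of 3 independent biological replicates per genotype. Expression was read as the intensity of 33P-labelled cDNA on 12 arrays. The labels used here give no strain, age or deleted part of the receptor gene.

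PTX3 is a secreted protein of innate immunity. Unlike the short pentraxins C-reactive protein (Crp) and serum amyloid P component (Apcs), which the liver makes, it is made locally by many cell types, including macrophages, endothelial cells, fibroblasts and glia, after signals such as interleukin-1, tumour necrosis factor and ligands of Toll-like receptors. It binds microbes, complement components such as C1q and factor H, the growth factor FGF2 and, through TNFAIP6 and inter-α-trypsin inhibitor, the hyaluronan matrix. IL-1β acts through a receptor complex of IL-1R1 and its accessory protein, which recruits MyD88, IRAK kinases and TRAF6 and activates NF-κB and MAP kinases.

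The region before the gene's start is shown because Ptx3 is a gene of this pathway and its probe moved together with Nfkbia, whose promoter is a known target of NF-κB. RefSeq's promoter table (GRCm38.p6) held all 6 genes looked up, Ptx3, Nfkbia, Steap4, Lcn2, Ccl12 and Tnfaip2. The first line gives the 250 bases before the annotated start of Ptx3 on the plus strand (chr3:66219637-66219886), with a match to the C/EBP motif in capitals. The other lines give matches to the NF-κB consensus, in capitals with up to 10 bases on each side, read along the strand of the gene.
Ptx3, before the start: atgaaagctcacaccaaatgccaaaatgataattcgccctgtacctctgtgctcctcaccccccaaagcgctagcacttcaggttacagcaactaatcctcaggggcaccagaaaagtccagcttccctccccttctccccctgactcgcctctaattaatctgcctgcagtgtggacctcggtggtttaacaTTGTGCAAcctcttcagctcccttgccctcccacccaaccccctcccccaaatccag
Ptx3 at -1 to 9 (chr3:66219876-66219905, plus strand): cccaaatccaGGGGAACTCCctcgcgctgt
Nfkbia at -29 to -20 (chr12:55492657-55492686, minus strand): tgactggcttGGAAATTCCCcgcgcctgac
Steap4 at -250 to -241 (chr5:7960222-7960241, plus strand): GGGATGCCCCaccccaaagg
Steap4 at -226 to -217 (chr5:7960236-7960265, plus strand): caaaggttccGGAAAACCCCttttataccc

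Positions are counted from the annotated start, whose first base is 1, with -1 before it. The NF-κB match of Ptx3 spans the start, and a match on the other strand overlaps it at 1 to 10. The search covered both strands of 250 bases before to 50 after each start. The NF-κB consensus was found in 4.51% of the 32851 windows in the table, and in those of Ptx3, Nfkbia and Steap4 among the 6 genes. TTGCNNAA, the C/EBP motif, was found in 10.8% of all windows, and in those of Ptx3, Lcn2 and Steap4 among the 6 genes. In Ptx3 it lies at -57 to -50. AP-1 (TGANTCA, in 7.81% of all windows) and Sp1 (GGGCGG, in 35.7%) had no match in the Ptx3 window, which says only that these letters are not there. Apart from Ptx3, the 6 genes are those named below whose change with IL-1β differed between genotypes in these data. Ptx3 was chosen on that difference too, so nothing is read from how many of the 6 had a match. A match is a description of the letters, and no binding was measured.

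The targeted gene had 1 probe, Il1r1, whose normalized log2 intensity was 13.80, 14.07 and 13.74 in wild-type glia with vehicle and 13.86 and 14.06 in IL-1R1-/- glia with vehicle. With IL-1β it was 14.29, 15.03 and 14.01 in wild-type and 13.96 and 14.17 in IL-1R1-/- glia. It was thus no lower on the IL-1R1-/- vehicle arrays and does not show the deletion. Whether the probe lies in the deleted part of the gene is unknown, so it does not check the genotype labels.

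Of the 12 deposited columns, 2 pairs hold the same values up to a constant ratio, and each pair includes a column of the third IL-1R1-/- replicate. For its IL-1β array, 6531 of 6584 shared probes stood at a single ratio to the vehicle array of IL-1R1-/- replicate 1, and for its vehicle array 5959 of 5982 did so to the vehicle array of wild-type replicate 1, within 1e-04 on the log2 scale. The Ptx3 values of these columns, 19631 and 18395, were left out. Which column of a pair is the original cannot be told from the values, so results are also given without the kept partners, the cultures of wild-type replicate 1 and IL-1R1-/- replicate 1. The remaining 10 arrays form 3 wild-type and 2 IL-1R1-/- pairs, and 5713 probes, Ptx3 among them, had a value on each. Array medians ran from 4649 to 60399 in intensity. How precise the values are is set by how few arrays there are. The lowest intensity on any array was 1340, so having a value does not show that a cell type marker was expressed. Of the marker probes with a value on all 10 arrays, 3 of 4 microglial (Itgam, Ctss and Tyrobp), 2 of 4 astrocyte (Sox9 and 1 of Glul), 2 of 3 neuron (Nefm and 1 of Nefl), 1 of 4 oligodendrocyte (Olig2), 0 of 4 endothelial and 0 of 1 fibroblast probes were above the array median on every array. Marker probes that lacked a value on some arrays are not in these counts. Among them, the astrocyte probes of Fabp7 (6.78 to 32.5 times the array median) and Aldoc (1.60 to 5.10) were above the median wherever measured. So was 1 probe of Pdgfra, an oligodendrocyte marker here, and the rest were not. No probe bore Gfap or Aqp4 as its only symbol.

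In vehicle-treated wild-type glia the deposited Ptx3 intensity was 16397, 7502 and 28947 in replicates 1, 2 and 3, and with IL-1β it was 484085, 38715 and 111619. The scale of the arrays differs between cultures, so these values compare only within a culture. Ptx3 was higher with IL-1β in each wild-type culture, by ratios of 29.5, 5.16 and 3.86. In IL-1R1-/- glia the vehicle arrays gave 32798 and 74834 in replicates 1 and 2, and the IL-1β arrays 36011 and 67530. Here the ratios were 1.10 and 0.902, 1 above and 1 below 1.

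Set against the median of its own array, Ptx3 with vehicle was at 0.911, 1.61 and 1.19 times that median in the wild-type replicates. With IL-1β it was at 27.3, 7.96 and 4.54 times the median. In IL-1R1-/- glia all 4 arrays gave between 1.02 and 1.27 times the median. Ptx3 with vehicle was therefore a probe of middling intensity, 3.07 to 4.84 times the lowest value of its array in both genotypes. How much of that intensity is background is unknown. Subtracting 0.9 times the lowest intensity of each array raised the mean wild-type change on the log2 scale from 3.16 to 3.48.

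After quantile normalization between arrays the log2 intensity of Ptx3 in wild-type glia was 14.23, 15.24 and 14.63 with vehicle and 18.94, 17.68 and 16.96 with IL-1β. The lowest IL-1β array stood above the highest vehicle array, so these groups did not overlap, as was the case for 8.1% of the 5713 probes. In IL-1R1-/- glia it was 14.37 and 14.67 with vehicle and 14.46 and 14.56 with IL-1β, so that both IL-1β arrays lay between the vehicle arrays. By group the order was wild-type with IL-1β at 17.86 ± 1.00 (SD, n = 3), wild-type with vehicle at 14.70 ± 0.51 (SD, n = 3), IL-1R1-/- with vehicle at 14.52 ± 0.21 (SD, n = 2) and IL-1R1-/- with IL-1β at 14.51 ± 0.07 (SD, n = 2). The last 3 groups lay within their spread of each other, and the first stood apart from all of them. The plot of Ptx3 by array shows this separation.

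**Figure D1:**
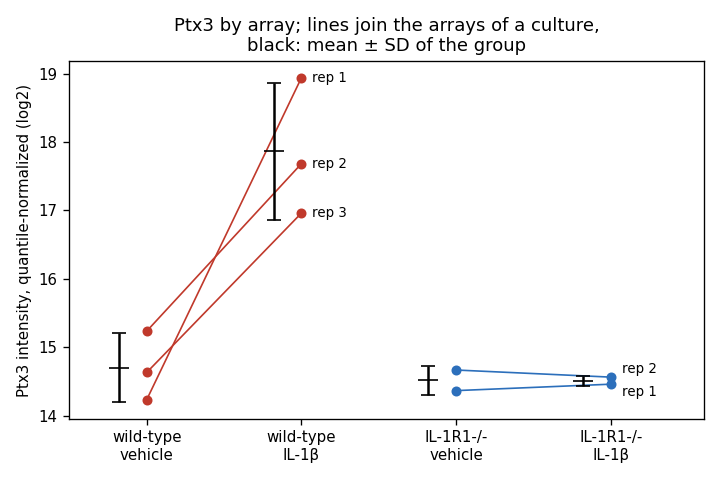
Quantile-normalized log2 intensity of Ptx3 on the 10 arrays (vertical axis) in the 4 groups (horizontal axis); lines join the vehicle and IL-1β array of a culture, and black bars are the group mean ± SD. The 3 wild-type IL-1β arrays lie between 16.96 and 18.94, above all other arrays, and the 4 IL-1R1-/- arrays lie between 14.37 and 14.67.

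Within cultures the log2 change of Ptx3 with IL-1β was 4.71, 2.45 and 2.33 in wild-type replicates 1, 2 and 3, or 26.1-fold, 5.46-fold and 5.03-fold. Replicate 1 exceeded the other two by more than 2 log2 units, and it had both the lowest vehicle and the highest IL-1β value. Ptx3 had the largest rise of all 5713 probes in replicate 1, where the SD over probes was 0.409. It came 2nd in replicate 2, behind Lcn2 (log2 change 3.48), and 5th in replicate 3, behind Lcn2 (2.90), a Ccl12 probe (2.89), Steap4 (2.47) and Tmem86b (2.41). In IL-1R1-/- replicates 1 and 2 its change was 0.09 and -0.11, at rank 2367 and 3545, in the middle of the probes.

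The fit with culture as a block gave a mean wild-type change of 3.16 ± 0.34 (SE, n = 3 pairs) on the log2 scale, with an SD between pairs of 1.34. Without wild-type replicate 1 it was 2.39. Without both cultures that share values with the columns left out, the wild-type change was 2.39, the IL-1R1-/- change -0.11 in the 1 pair that remained, and their difference 2.49. For IL-1R1-/- glia the mean was -0.01 ± 0.41 (SE, n = 2 pairs), with a 95% interval of -0.90 to 0.89. The changes of the genotypes differed by 3.17 ± 0.54 (SE), a fit in which 0.158% of all probes were called. These estimates describe the contrasts on which the gene was chosen. Their SE and intervals, like every SE given here, use limma's residual spread, pooled over all arrays and drawn towards that of all probes. For wild-type glia this SE is smaller than the 3 pairs alone would give, and for IL-1R1-/- glia it is larger than the 2 pairs alone would give. Across all probes the wild-type contrast called 4.55% as higher and 1.63% as lower at an adjusted p under 0.05 in limma, and nothing is read from this for Ptx3.

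**Figure D2:**
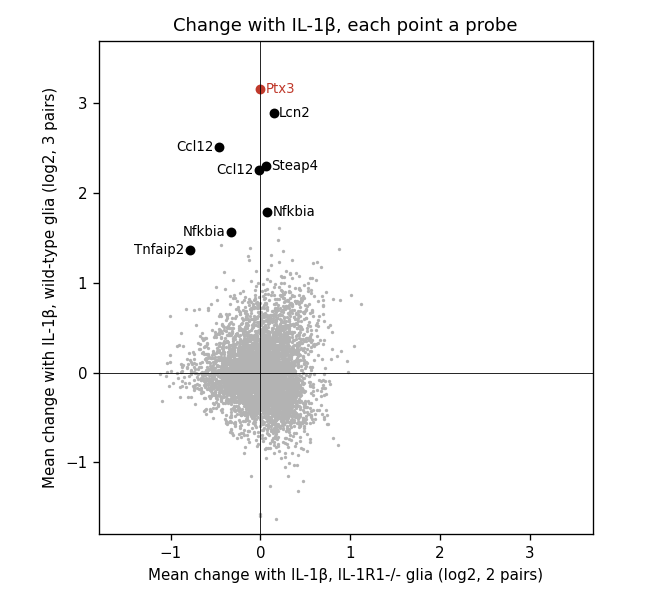
Mean log2 change with IL-1β in wild-type glia (vertical axis, 3 pairs) against that in IL-1R1-/- glia (horizontal axis, 2 pairs), with each of the 5713 probes as a point. Ptx3 (red) is at 3.16 and -0.01, and the named black points are the other probes of the report whose changes differed between genotypes in limma.

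The vehicle arrays ask whether Ptx3 differs by receptor genotype without added IL-1β, a contrast the choice of the gene did not use. All 5 vehicle arrays entered the changes on which it was chosen, however, so the difference is given as a description and without a test. The mean in IL-1R1-/- glia was 0.18 lower on the log2 scale than in wild-type glia (-0.18 ± 0.51 SE, n = 2 and 3 cultures). The 95% interval was -1.28 to 0.92, and the value was -0.27 without the cultures that share values with the columns left out. In this comparison 0.0175% of all probes, a single one, passed in limma. With IL-1β the genotypes were apart by -3.35 ± 0.51 (SE, IL-1R1-/- minus wild-type), which is given as a description.

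Fold changes in wild-type glia followed the place of a probe in the list, in a pattern of plates with 16 rows and 24 columns that was inferred from the values. Ptx3 is in row 2 and column 14 of plate 3. The smooth trend at this place was lower with IL-1β than with vehicle in every wild-type culture, by -0.09 against 0.09, -0.15 against 0.30 and -0.31 against 0.17 on the log2 scale. Taking it away raised the Ptx3 changes to 4.88, 2.90 and 2.80, with a mean of 3.53 ± 0.32 (SE). The mean in IL-1R1-/- glia became -0.19 ± 0.39 (SE), from 0.04 and -0.43 in its pairs. The difference with vehicle then had the opposite sign, 0.12 ± 0.48 (SE).

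The probes around Ptx3 in the list changed less than it did in each wild-type culture. In wild-type replicate 1, where Ptx3 changed by 4.88 in the deposited intensities on the log2 scale, the 16 probes with a value among the 12 on each side had changes from -1.63 to 0.57, with a median of -0.42. In replicates 2 and 3 the ranges were -1.36 to 0.34 over 21 probes and -1.26 to 0.67 over 20, against 2.37 and 1.95 for Ptx3. In the IL-1R1-/- pairs the neighbours had medians of 0.12 and 0.25, and Ptx3 had 0.14 and -0.15. In wild-type replicate 1 the 2 probes that follow Ptx3, Zfas1 at 0.40 and Eif1a at 0.57, were the only ones of the 16 above 0, and Fndc1, just before it, had no value. In replicates 2 and 3 Zfas1 had -0.27 and -0.70, and Eif1a -0.44 and -0.52.

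**Figure D3:**
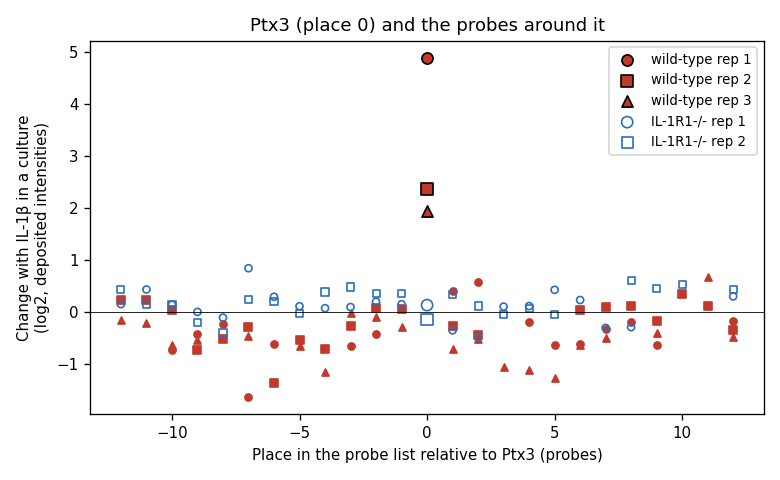
Log2 change with IL-1β in the deposited intensities (vertical axis) for Ptx3 at place 0 and for the 12 probes on each side in the probe list (horizontal axis), by culture. Ptx3 stands at 4.88, 2.37 and 1.95 in the wild-type cultures, and no neighbour exceeded 0.67 there.

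The probes whose values ran most alike with Ptx3 were ranked by Pearson's r over the 10 arrays among 4664 other probes with 1 gene symbol. The arrays share cultures and 3 of them carry most of the Ptx3 range, so r is a description. The 10 highest lay between 0.97 and 0.89, and over all probes the median r was -0.02. They were Trex1 (r = 0.97), a DNA exonuclease, Nfkbia (0.96 and 0.92 for its probes), the gene of IκBα, which keeps NF-κB out of the nucleus, Ccl12 (0.94), a monocyte-attracting chemokine, Oas2 (0.94) and Rsad2 (0.91), both interferon-induced antiviral genes, Plekha3 (0.93), Ahcyl2 (0.93), Smim3 (0.91) and Trmt1l (0.89). With the position trend removed 6 of the 10 remained, and 3 did when wild-type replicate 1 was left out (8 arrays).

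The size of the change varied among these probes. In wild-type replicates 1, 2 and 3 the first Nfkbia probe changed by 2.02, 1.65 and 1.04 on the log2 scale and 1 Ccl12 probe by 3.35, 2.19 and 2.00. Replicate 1 was the highest in both, as it was for Ptx3, but they were picked for their likeness to it. The other Ccl12 probe changed by 2.55, 1.33 and 2.89, with its highest value in replicate 3. Trex1 changed by 0.66, 0.49 and 0.27, and Plekha3 by 0.46, 0.45 and 0.45. Neither passed in limma (adjusted p = 0.129 and 0.128), so a high r here includes probes of small change. The Oas2, Ahcyl2 and Rsad2 probes passed, but not with the position trend removed (adjusted p = 0.066, 0.066 and 0.107 in limma). Lcn2, which changed by 2.31, 3.48 and 2.90, had its lowest value in replicate 1, where Ptx3 had its highest. Other probes of Oas2, Rsad2 and Trmt1l had r of -0.17, -0.20 and 0.38 with Ptx3, so 1 probe speaks for each of those genes.

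**Figure D4:**
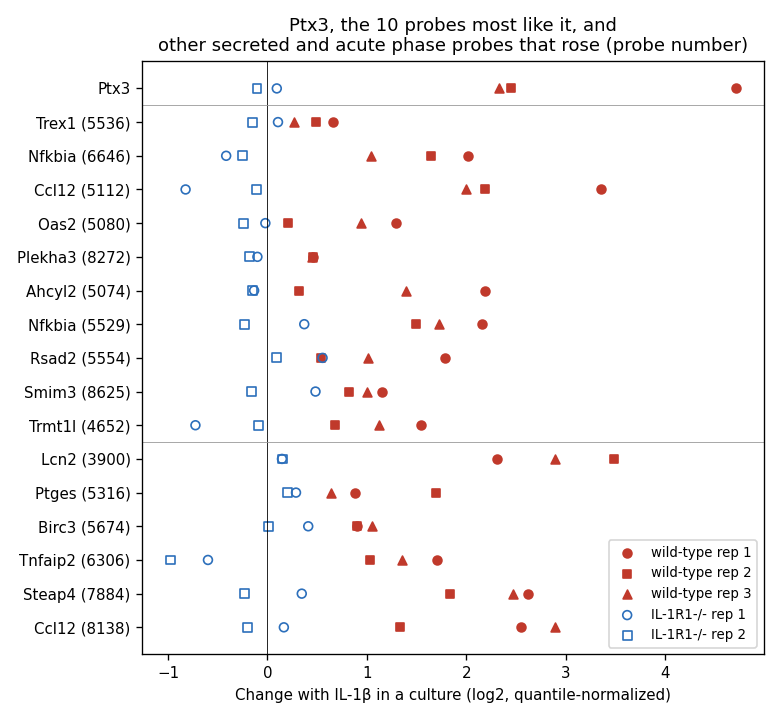
Log2 change with IL-1β in each culture (horizontal axis) for Ptx3, the 10 probes most like it and 6 further probes that rose in wild-type glia. The 6 are from the list named secreted and acute phase, not all of whose genes encode secreted proteins. Filled symbols are wild-type and open symbols IL-1R1-/- cultures, and Ptx3 in wild-type replicate 1, at 4.71, is the value farthest to the right.

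Of the other pentraxins 2 of 6 listed genes had a probe with a value on all 10 arrays. Crp, a short pentraxin, changed by 0.35, 0.72 and -0.01 in the wild-type cultures, with a mean of 0.35 ± 0.18 (SE, adjusted p = 0.293 in limma). Apcs changed by 0.08, 0.12 and -0.26, with a mean of -0.02 ± 0.17 (SE, adjusted p = 0.962). Neither passed. In IL-1R1-/- glia the means were 0.03 for Crp and -0.27 for Apcs.

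Among genes of complement, collectins and Fc receptors 6 of 19 listed were measured on all arrays, and 1 rose in wild-type glia, against 4.55% of all probes. This was Mbl1, a mannose-binding lectin (log2 0.75 ± 0.21 SE, adjusted p = 0.0479 in limma). Mbl1 had 0.70 in IL-1R1-/- glia as well. It had 0.18 with the position trend removed and did not pass in 10 of 17 other settings. C1qc, a subunit of the C1q that PTX3 binds, had -0.52 and Fcgr3, an Fc receptor, -0.43, and neither passed. The median over the list was -0.24, against -0.04 over all probes. With the position trend removed these medians were -0.015 and 0.002, and C1qc and Fcgr3 had -0.35 and -0.03.

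Among matrix and FGF partners 4 of 17 genes were measured, and 2 fell in wild-type glia, against 1.63% of all probes. Itih3, a heavy chain of inter-α-trypsin inhibitor, had -0.75 ± 0.18 (SE, adjusted p = 0.031), and 1 of the probes of Fgfr1, a receptor of FGF2, had -0.73 ± 0.18 (SE, adjusted p = 0.0334 in limma). The other Fgfr1 probe had 0.06. Neither gene passed with the position trend removed, when they had -0.32 and -0.40, a setting in which 0.298% of all probes passed as higher and 0.105% as lower. Each failed in 10 of 16 alternatives, those that leave out any 1 replicate among them. Tnfaip6, which links PTX3 to the hyaluronan matrix, had -0.25, and Vcan, the proteoglycan versican, -0.38. Neither passed.

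In the pathway from the IL-1 receptor to NF-κB 7 of 33 listed genes were measured and 1 rose, against 4.55% of all probes. This was Nfkbia, with log2 1.79 ± 0.19 and 1.57 ± 0.20 (SE) for its probes (adjusted p = 0.000312 and 0.00132 in limma). Both passed in 17 of 17 other settings. Il1r1, the receptor itself, had 0.58 and Nfkbiz, a nuclear IκB protein, had 0.60, without passing (adjusted p = 0.0794 and 0.0693). Nfkb2, Ikbkg, Ikbkb and Traf6 had values between -0.39 and 0.20. Of the MAP kinase and AP-1 genes 4 of 21 were measured and 0 passed in limma (1 of 6 probes, of Sp1, at an unadjusted p under 0.05), with values from -0.35 to 0.50.

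Of 38 genes listed as secreted and acute phase 7 were measured, 6 of which rose, against 4.55% of all probes. The list was drawn up with these rises known, so its count is no independent evidence. Its name is loose, since Ptges, Birc3 and others of the 7 do not encode secreted proteins. Lcn2, which binds siderophores, had log2 2.90 ± 0.21 (SE), and Steap4, a metalloreductase, had 2.31 ± 0.20. Ccl12 had 2.51 ± 0.25 and 2.26 ± 0.25 for its probes, and Tnfaip2 had 1.36 ± 0.19. These genes passed in every alternative in which they were measured. Ptges, a prostaglandin E synthase, had 1.07 ± 0.21 and Birc3, an inhibitor of apoptosis, had 0.95 ± 0.17, and neither passed with the position trend removed (0.45 and 0.39). Without wild-type replicate 1, 4 genes of the list passed, Ccl12, Lcn2, Steap4 and Tnfaip2. In IL-1R1-/- glia the 8 probes of the list had a median of 0.06, with a range from -0.79 to 0.24, and 0 passed in limma, where 434 of all 5713 probes had an unadjusted p under 0.05 and 0 were called.

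Markers of the cell types in such cultures were set beside the Ptx3 result, since in a mixed culture fewer cells of a type and less RNA per cell cannot be told apart. The summed normalized intensity of 4 astrocyte probes (Glul with 2 probes, Slc1a2 and Sox9) was 110369 to 120481 in wild-type glia with IL-1β and 149360 to 168089 with vehicle, without overlap. That gap rests on 1 Glul probe, since the sums of the other 3 overlapped, 53096 to 75426 with IL-1β and 58588 to 90151 with vehicle. In IL-1R1-/- glia the ranges overlapped, 102076 to 139817 and 106444 to 151193. Of these markers 1 fell in wild-type glia, the glutamine synthetase Glul (log2 -0.84, adjusted p = 0.0291 in limma for 1 of its probes). This probe did not pass with the position trend removed (-0.47, adjusted p = 0.239), and the other Glul probe had -0.10 (adjusted p = 0.826 in limma). The 4 microglial probes gave 190724 to 265802 with IL-1β and 228514 to 254268 with vehicle in wild-type glia, and 0 of them passed in limma (0 also at an unadjusted p under 0.05). In IL-1R1-/- glia the microglial sums were 244097 to 269999 with IL-1β and 294712 to 375422 with vehicle, without overlap. These vehicle sums also lay above those of wild-type glia with vehicle. In limma 0 microglial probes passed for either of these differences. Of 4 endothelial probes Emcn rose (0.84), with sums of 64304 to 87630 and 56694 to 86778, and it did not pass with the position trend removed (0.30). In IL-1R1-/- glia the endothelial sums were 59830 to 62683 with IL-1β and 65548 to 72818 with vehicle, also without overlap. The sums of the remaining cell types overlapped between treatments in IL-1R1-/- glia. Of the 4 oligodendrocyte, 3 neuron and 1 fibroblast probes 0 passed in limma (2 at an unadjusted p under 0.05, Olig2 and Lum). The part of cell composition in the Ptx3 values was not tested.

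The wild-type change of Ptx3 on the log2 scale stayed between 2.39 and 3.58 over 17 other ways of processing, and that of IL-1R1-/- glia between -0.19 and 0.41. Some of these ways cannot alter the value, such as leaving out arrays of the other genotype. The lowest wild-type values came from leaving out replicate 1, with or without IL-1R1-/- replicate 1. The plot of Ptx3 under each way of processing shows no overlap of the genotypes.

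**Figure D5:**
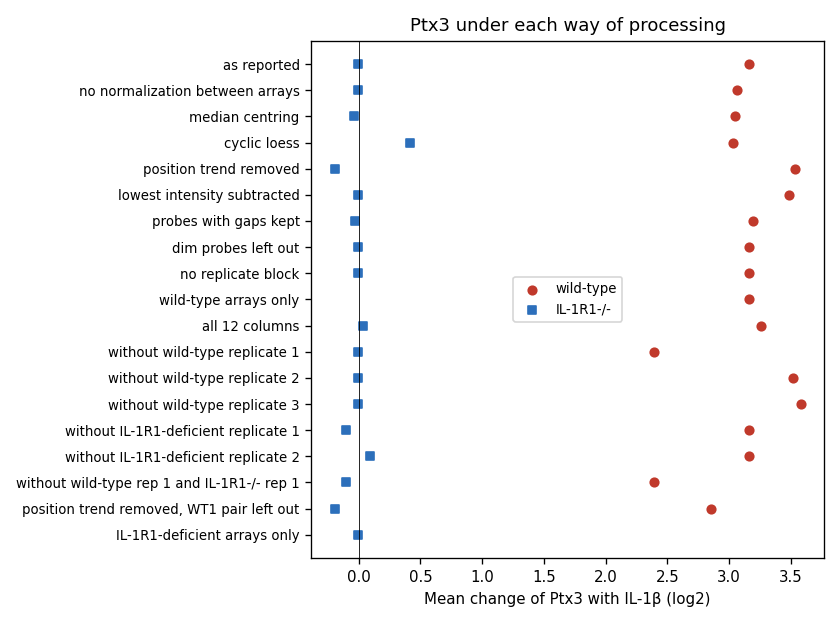
Mean log2 change of Ptx3 with IL-1β (horizontal axis) in wild-type (red circles) and IL-1R1-/- glia (blue squares) under each way of processing (vertical axis). Wild-type values run from 2.39 to 3.58 and IL-1R1-/- values from -0.19 to 0.41.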

How the data were processed

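The authors' deposited table holds linear spot intensities of 33P-labelled cDNA, per the labels. Their software, background correction, normalization and filter were not stated in these sources. Gene symbols came from the platform annotation (7153 of 8734 probes with 1 symbol, 387 with several, 1194 with none). The gene and the lists were chosen with earlier results of these data known.

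The 5713 probes with a value on all 10 arrays were quantile-normalized on the log2 scale and fitted with lmFit and eBayes in limma 3.58.1 (R 4.3.3). The IL-1β changes had culture as a block. For the vehicle comparison duplicateCorrelation (with statmod 1.5.0) treated culture as a random effect, at a correlation of 0.388. No p is given for Ptx3, since all arrays entered its choice. P-values of other probes are two-sided and adjusted by Benjamini and Hochberg over all probes, at a threshold of 0.05. Treatments were paired per the series' design text, and deviations from group means correlated within a culture at 0.562 for IL-1R1-/- and at 0.468, 0.582 and 0.261 for wild-type cultures. The leaving out of IL-1R1-/- replicate 3 and the position trend (loess over plate row and column, span 0.2, separately for the first 11 plates and the rest) were likewise chosen from earlier results of these data. Named genes were Ptx3, measured pentraxins, list members past the threshold and the 10 probes most like Ptx3; other list members are named for their role, and the probes above Ptx3 in a pair were picked after their values were seen. The fit was tested on simulated arrays drawn independently, without culture effects or a position trend. How it performs with those was not tested.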

Additional observations from a re-analysis of the deposited data

Results flagged for a closer look

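The change with IL-1β differed between wild-type and IL-1R1-/- glia for 7 probes named in the report, by the contrast of both changes in limma. That contrast called 0.158% of all probes. The 7 were named for their rise in wild-type glia, which is part of the contrast, or for their likeness to Ptx3. Their adjusted p is therefore no independent evidence. For Ptx3 the difference was 3.17 on the log2 scale, but the gene was chosen on it, so it has no test and is not among the 7. These were Lcn2 with 2.75 ± 0.33 (SE, adjusted p = 0.00593), Ccl12 with 2.98 ± 0.39 (adjusted p = 0.00683) and 2.27 ± 0.39 (adjusted p = 0.0349) for its probes, Steap4 with 2.25 ± 0.32 and Tnfaip2 with 2.15 ± 0.29 (adjusted p = 0.00798 for both), and Nfkbia with 1.72 ± 0.31 (adjusted p = 0.0423) and 1.90 ± 0.32 (adjusted p = 0.0315). In each of the 7 the lowest change of the 3 wild-type pairs was above the highest of the 2 IL-1R1-/- pairs. Passing this contrast is how the 7 were picked, so that separation is no further evidence. Its share over all probes was not counted.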

How the results depend on the processing

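The wild-type change of Ptx3 and its difference from that in IL-1R1-/- glia kept their direction in 17 and 16 alternatives, each within the SD between pairs. Not all of these could have moved them. Leaving out dim probes, the block or IL-1R1-/- arrays does not alter the wild-type value. Leaving out a single pair cannot shift a mean by as much as that SD. The IL-1R1-/- change moved by more than its small SD between pairs (0.141) to 0.41 with cyclic loess, and to -0.19 with the position trend removed, with or without wild-type replicate 1. The vehicle difference changed sign to 1.70 without normalization and to 0.12 with the trend removed, and ran from -0.416 to 0.085 with each replicate left out, the highest without wild-type replicate 2. Without wild-type replicate 1 and IL-1R1-/- replicate 1, whose vehicle arrays share values with the columns left out, it was fitted without a culture block. Over all probes 353 passed in wild-type glia (260 higher). The count was 23 with the trend removed (17 higher), 12 with the trend and wild-type replicate 1 removed, 1012 of 8654 with gaps kept, 151 of 2857 without dim probes, 14 with no replicate block for the paired treatments, 175 with wild-type arrays alone, 150 on all 12 columns, 69 without both of these pairs, and 28 to 203 with each replicate left out, 28 without wild-type replicate 1 and 53 without replicate 2. The settings with both pairs left out, or with trend and replicate 1 removed, were added after seeing the data. Background in the intensities is unknown and limits the size of every fold change.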
